A study of Caenorhabditis elegans with 32 samples.

Results

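Glycolysis splits glucose into pyruvate, and several of its enzymes also run in reverse when glucose is made. Isocitrate lyase opens the glyoxylate cycle, a bypass of the tricarboxylic acid (TCA) cycle by which nematodes, unlike most animals, can make sugar from fat. The genes described here are 10 genes of these routes in Caenorhabditis elegans. They are gpi-1 (glucose-6-phosphate isomerase), tpi-1 (triosephosphate isomerase), gpd-1 to gpd-4 (glyceraldehyde-3-phosphate dehydrogenases, GAPDH), enol-1 (enolase), pyk-1 and pyk-2 (pyruvate kinases) and icl-1. The last of these encodes a protein with both isocitrate lyase and malate synthase activity, the 2 enzymes of the glyoxylate bypass.

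Members were taken by gene name from the table of untreated animals and followed by RefSeq transcript into the other tables. This matched 14 transcripts of 9 of the 10 genes, among 16422 transcripts in that table and 46971 in each of the others. No row of the untreated table carried the name pyk-2, so its 3 transcripts were followed by identifier in the other 3 tables and stay out of every count of 14. All 14 transcripts had the status OK, and all 14 passed the filter on low values. For icl-1 isoform b and gpd-4 this was only through the group where each was highest. Isoform letters are those of the untreated table. The 14 transcripts come from the same libraries, and isoforms of a gene share reads, so they are not independent of each other.

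Poly-A RNA of whole adults, 2 or 12 days into adulthood, was sequenced in 20 libraries, 2 in each of 10 groups. All animals carried glp-1(e2141), a temperature-sensitive allele whose carriers lack most germ cells when raised warm. They were hatched and cultured at 25°C from stocks kept at 16°C, with about 3000 embryos a plate, and day 12 animals were re-fed once on day 4. The groups, each at both ages, were glp-1(e2141) animals labelled L4440 (a plasmid commonly fed as the empty control of RNA interference), glp-1(e2141) animals labelled met-1 RNAi, glp-1(e2141) controls of a mutant, met-1(n4337); glp-1(e2141) mutants, and untreated glp-1(e2141) animals grown beside chromatin samples. The gene met-1 encodes a methyltransferase of lysine 36 on histone H3, and the series asks how that mark relates to expression change with age. The mutant allele was outcrossed to N2 3 times before it was crossed to glp-1(e2141), and each sample is a pellet of many pooled animals. The labels do not say whether the 2 libraries of a group came from separate cultures, so p-values speak only of the spread among these samples, and that spread may be technical.

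Values per library exist for the 8 libraries labelled L4440 or met-1 RNAi. They are in FPKM, fragments scaled to transcript length and to the mapped total. In the other 3 tables both libraries of an age share 1 value, which allows no test. Relative read numbers of the 8 libraries ran from 0.355, in replicate 2 of L4440 at day 12, to 1.298, and the depth of the pooled tables is unknown. The targeted gene met-1 was not lower in the libraries labelled met-1 RNAi. Its summed level was 7.80 and 5.03 FPKM in L4440 against 13.03 and 27.5 FPKM under the label met-1 RNAi at day 2. At day 12 it was 10.7 and 29.8 against 80.1 and 57.1 FPKM. Its main transcript was higher by 1.91 on the log2 scale at day 12, which did not pass the test (limma, adjusted p = 0.441). No direction of met-1 activity is therefore read from that label.

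Most of the abundant members were lower at day 12 than at day 2 in all 5 experiments, and gpd-2 had the largest day 2 to day 12 ratio of the abundant genes in 4 of them. In the L4440 arm 11 of 14 transcripts fell with age and none rose (limma, adjusted p below 0.05). The background there was 11.9% of 18572 tested transcripts lower and 6.78% higher. Among the 11, icl-1 isoform b passed the filter on low values only through the group where it was high, so its call adds no support. In the arm labelled met-1 RNAi 9 of 14 fell and none rose, against a background of 12.3% lower and 8.35% higher. The median change of the 14 was −1.66 in L4440 and −1.33 in met-1 RNAi on the log2(FPKM + 1) scale. That of all tested transcripts was −0.07 and −0.01. The median of the 14 includes icl-1 isoform b and gpd-4, so it is given as a description only. For the 9 members with a mean of at least 50 FPKM the median was −1.64 in L4440 and −1.48 in met-1 RNAi. Among the 3677 transcripts with a mean of at least 50 FPKM, a class chosen after the values were seen, 26.4% fell in L4440 and 27.7% in met-1 RNAi. With FPKM summed per gene, 7 of 9 genes fell in each arm, where 15.4% and 15.5% of 15770 genes did. The 2 genes that did not pass were gpd-1 and gpd-4.

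Changes in the 8 libraries are printed after every library was centred to one median, because the median transcript moved up by 0.46 in L4440 and 0.48 in met-1 RNAi in the values as deposited. Of all calls, 36.3% were higher at day 12 in L4440 and 40.4% in met-1 RNAi after centring, against 75.6% and 75.7% without it. For the transcripts named as fallen the direction was the same with and without centring. The 14 transcripts together made up 0.341% to 0.383% of all summed FPKM in the 4 day 2 libraries and 0.0961% to 0.119% in the 4 day 12 libraries. The same share went from 0.302% to 0.129% in the controls, from 0.402% to 0.121% in the mutants and from 0.354% to 0.130% in the untreated animals.

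**Figure D1:**
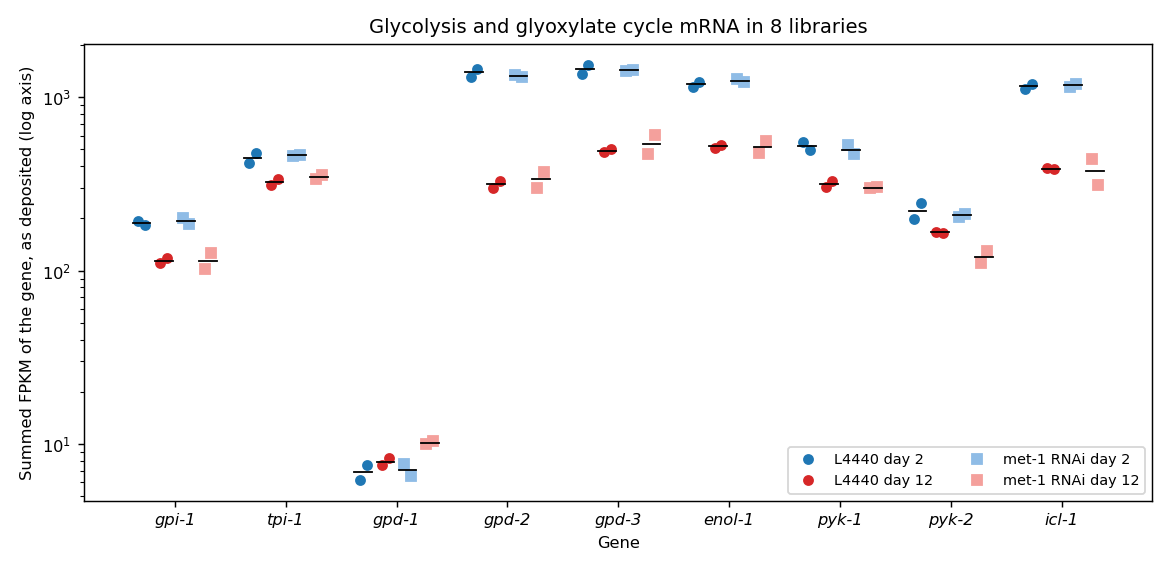
Summed FPKM of each gene on a log axis in the 8 libraries, with a point per library and a bar at the mean of 2. Day 12 libraries lie below day 2 libraries of the same arm for every gene shown except gpd-1, and gpd-4, at 1.42 FPKM or less, is left out.

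The first isomerase of the pathway, gpi-1 (chrI:13576275-13581418 in the tables' coordinates, build not given in the sources used here), was among the less abundant members. Its isoform a, NM_001026666, stood at 147.9 and 148.4 FPKM in L4440 at day 2, and 98.6 and 102.9 FPKM at day 12. The arm labelled met-1 RNAi gave 159.1 and 156.7 FPKM, then 83.9 and 103.0 FPKM. Both day 12 libraries lay below both day 2 libraries in each arm. The same held for 15.1% of all tested transcripts in L4440 and 16.7% in met-1 RNAi. These shares stand beside every fall below whose ages do not overlap. The centred change of isoform a was −1.08 ± 0.139 (SE) in L4440 (limma, adjusted p = 0.00513) and −1.25 ± 0.139 in met-1 RNAi (limma, adjusted p = 0.00308). Isoform b, NM_001026667, was lower throughout, at 34.7 to 46.7 FPKM in L4440 at day 2 and 11.8 to 14.7 FPKM at day 12. It fell by 2.07 on the log2 scale in L4440 (limma, adjusted p = 0.00400) and fell by 1.26 in met-1 RNAi (limma, adjusted p = 0.0187). The second call did not hold in the values as deposited (limma, adjusted p = 0.0672), nor without either day 12 library or replicate 1 of day 2 in that arm (limma, adjusted p from 0.0567 to 0.0966). These animals are measured whole, so fewer cells of a type and less RNA per cell cannot be told apart here or in any result that follows.

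Triosephosphate isomerase, which interconverts the 2 triose phosphates, showed the smallest fall in L4440 among the abundant members that passed. Its transcript NM_064162 stood at 417.2 and 475.2 FPKM in L4440 at day 2, and 311.5 and 339.6 FPKM at day 12. The libraries labelled met-1 RNAi gave 460.9 and 466.6 FPKM, then 335.8 and 354.9 FPKM. The ages did not overlap in either arm, but the mean levels as deposited differed by no more than 1.37-fold. The centred change was −0.98 ± 0.133 in L4440 (limma, adjusted p = 0.00617) and −0.91 ± 0.133 in met-1 RNAi (limma, adjusted p = 0.00709). Without replicate 2 of day 2 the call in met-1 RNAi was lost (limma, adjusted p = 0.0503). The tables place tpi-1 in one chromosome II locus, from 11918254 to 13303998, that is shared with other genes and holds 393 transcripts in all, so no position of its own is given.

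The GAPDH genes form 2 pairs of closely similar copies, gpd-2 with gpd-3 and gpd-1 with gpd-4. Reads could be split between the copies of a pair by the counting, or left out where they fit both, so these values are uncertain. The library columns of the RNA interference arms are labelled as unique hits, and the sources do not say how reads fitting both copies were treated. In C. elegans gpd-2 and gpd-3 are neighbours in one operon and are known as the main forms after embryogenesis. The tables place gpd-3 at chrX:3112191-3113313 and gpd-2 at chrX:3113558-3114679.

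For gpd-2, NM_076134, the L4440 libraries held 1314 and 1464 FPKM at day 2 and 299.1 and 329.2 FPKM at day 12. Those labelled met-1 RNAi held 1346 and 1306 FPKM, then 301.3 and 372.3 FPKM. Every day 2 library was more than 3 times as high as every day 12 library. This was the largest change with age among members with a mean of at least 50 FPKM, at −2.67 ± 0.165 in L4440 (limma, adjusted p = 0.000721) and −2.47 ± 0.165 in met-1 RNAi (limma, adjusted p = 0.000788).

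For gpd-3, NM_076133, the L4440 libraries held 1369 and 1539 FPKM at day 2 and 480.5 and 503.9 FPKM at day 12. Those labelled met-1 RNAi held 1415 and 1438 FPKM, then 469.6 and 602.3 FPKM. The ages were again fully separate. The change was −2.09 ± 0.177 in L4440 (limma, adjusted p = 0.00155) and −1.91 ± 0.177 in met-1 RNAi (limma, adjusted p = 0.00175). Summed with gpd-2, the pair fell by 2.37 in L4440 and fell by 2.18 in met-1 RNAi (limma, adjusted p = 0.000788 and 0.000856). A split of reads within the pair does not affect this sum, but any reads left out for fitting both copies are not recovered.

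The ratio of gpd-2 to gpd-3 differed between the ages. It lay between 0.908 and 0.960 in the 4 day 2 libraries and between 0.618 and 0.653 in the 4 day 12 libraries. The mean log2 ratio was lower by 0.57 at day 12, which is as far as 4 libraries against 4, permuted within the 2 arms, can go (exact permutation test over 36 arrangements, two-sided p = 0.0556, the smallest it allows). Adjusted over the 4 ratios computed, p was 0.111 by Benjamini-Hochberg, and no difference could pass 0.05 in this design. The pooled tables gave 0.866 and 0.584 in the controls at the 2 ages, 0.873 and 0.462 in the mutants and 0.571 and 0.373 in the untreated animals, lower at day 12 in each.

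The other pair behaved differently in the RNA interference libraries. For gpd-1, NM_063836 at chrII:10394057-10395183, the L4440 libraries held 6.20 and 7.52 FPKM at day 2 and 7.59 and 8.25 FPKM at day 12. Those labelled met-1 RNAi held 7.62 and 6.55 FPKM, then 9.97 and 10.4 FPKM. As deposited, both day 12 libraries were above both day 2 libraries in each arm, as were those of 50.8% of all tested transcripts in L4440 and 53.7% in met-1 RNAi. After centring the change was −0.34 ± 0.190 in L4440 (limma, adjusted p = 0.280) and −0.02 ± 0.190 in met-1 RNAi (limma, adjusted p = 0.962). Neither passed the test, and the sign depended on the scaling, at 0.19 and 0.47 without centring. The near-identical gpd-4, NM_063791 at chrII:10171201-10172327, was very low, from 0 to 1.42 FPKM over the 8 libraries. Its 2 highest libraries, at 1.25 and 1.42 FPKM, were those labelled met-1 RNAi at day 12. Only through these did it pass the filter on low values. No comparison of gpd-4 passed the test (limma, lowest adjusted p = 0.111). It passed as lower in L4440 with a pseudocount of 10 and with no filter on low values (limma, adjusted p = 0.00931 and 0.0446).

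Enolase, at chrII:8930922-8933532, makes phosphoenolpyruvate and had the highest summed level of the 10 genes in L4440 at day 12. Isoform a, NM_063499, stood at 985.6 and 1034 FPKM in L4440 at day 2, and 449.3 and 424.4 FPKM at day 12. In the met-1 RNAi arm the values were 1054 and 1017 FPKM, then 377.8 and 433.6 FPKM. All 4 day 12 libraries lay far below the lowest day 2 library. The change was −1.73 ± 0.136 in L4440 (limma, adjusted p = 0.00132) and −1.84 ± 0.136 in met-1 RNAi (limma, adjusted p = 0.000983).

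The second enolase isoform, b or NM_182116, stood at 163.0 and 192.7 FPKM in L4440 at day 2, and 63.4 and 104.1 FPKM at day 12. The met-1 RNAi libraries held 215.2 and 208.7 FPKM, then 98.0 and 126.8 FPKM. The ages did not overlap, though the day 12 libraries spread more widely than those of isoform a. It fell by 1.64 ± 0.271 in L4440 (limma, adjusted p = 0.0115) and fell by 1.41 ± 0.271 in met-1 RNAi (limma, adjusted p = 0.0179). The call was lost in L4440 without replicate 2 of day 2 (limma, adjusted p = 0.0625), and in met-1 RNAi without either day 2 library or replicate 1 of day 12 (limma, adjusted p from 0.0841 to 0.0887). The ratio of isoform b to a was 0.165 to 0.205 in the day 2 libraries and 0.141 to 0.293 in the day 12 libraries, ranges that overlap.

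Pyruvate kinase makes the last product of the pathway, pyruvate, and is encoded by pyk-1 (chrI:9168454-9177108) and pyk-2 (chrIV:10909915-10912969). The main pyk-1 transcript, isoform a or NM_060057, stood at 477.7 and 432.8 FPKM in L4440 at day 2, and 228.9 and 248.8 FPKM at day 12. Libraries labelled met-1 RNAi gave 478.7 and 427.4 FPKM, then 248.0 and 209.3 FPKM. The ages were fully separate in both arms. The change was −1.45 ± 0.127 in L4440 (limma, adjusted p = 0.00169) and −1.48 ± 0.127 in met-1 RNAi (limma, adjusted p = 0.00143).

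Isoform c of pyk-1, NM_001026240, went the other way in the values as deposited. It stood at 40.2 and 25.0 FPKM in L4440 at day 2, and 76.0 and 81.4 FPKM at day 12. The arm labelled met-1 RNAi gave 39.1 and 27.1 FPKM, then 50.1 and 75.3 FPKM. Both day 12 libraries were above both day 2 libraries in each arm, as were those of 50.8% of all tested transcripts in L4440 and 53.7% in met-1 RNAi. After centring the change was 0.76 ± 0.313 in L4440 (limma, adjusted p = 0.162) and 0.41 ± 0.313 in met-1 RNAi (limma, adjusted p = 0.428), neither past the threshold. Without centring that in L4440 was 1.28 and passed (limma, adjusted p = 0.0319). The ratio of isoform c to a, which no scaling of a library can change, was 0.0577 to 0.0841 in the day 2 libraries and 0.202 to 0.360 in the day 12 libraries. Its mean log2 was higher by 2.07 at day 12, with the smallest p that the exact permutation test allows, 0.0556, or 0.111 adjusted over the 4 ratios. All 3 pooled tables gave a higher ratio at day 12, from 0.0778 to 0.256 in the controls, from 0.151 to 0.377 in the mutants and from 0.0338 to 0.115 in the untreated animals. Isoforms share most of their reads, so such a ratio rests on those that distinguish them.

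**Figure D2:**
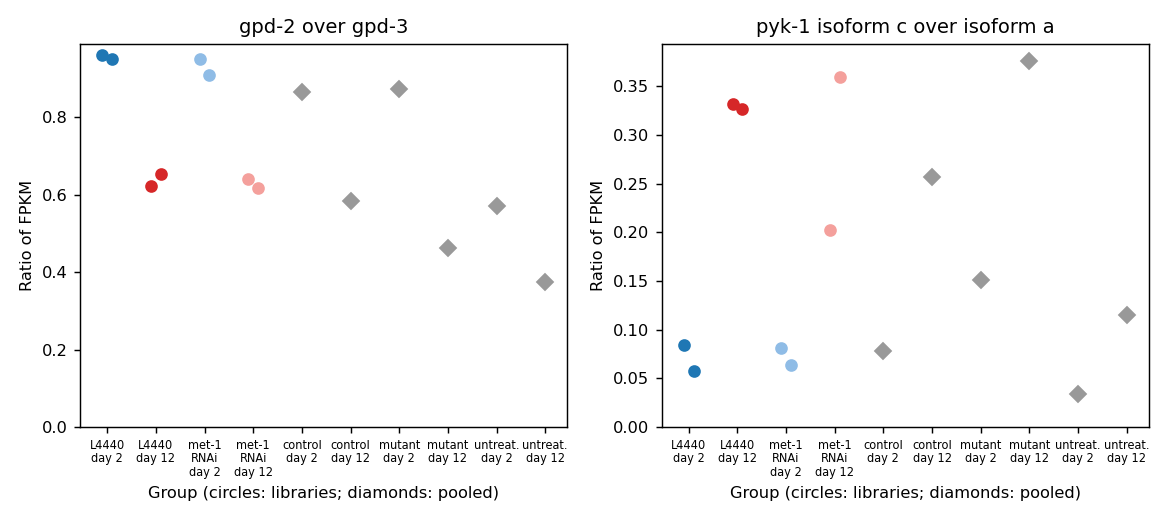
Ratio of FPKM of gpd-2 to gpd-3 (left) and of pyk-1 isoform c to isoform a (right), with a circle per library in the 4 groups with library values and a diamond for each pooled value. The first ratio is 0.908 or more in day 2 libraries and 0.653 or less in day 12 libraries, and the second is 0.0841 or less and 0.202 or more.

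Isoform d, NM_001026241, varied widely between libraries of one group. It held 36.6 and 41.1 FPKM in L4440 at day 2 and 0.130 and 0.131 FPKM at day 12. In the met-1 RNAi arm the values were 11.5 and 14.9 FPKM, then 0.0233 and 19.4 FPKM, so the 2 libraries of one group lay at both ends of its range. The change in L4440, −5.66 ± 1.30, passed (limma, adjusted p = 0.0337). It was lost with a pseudocount of 0.1 (limma, adjusted p = 0.0594), and without any one of the 4 L4440 libraries or either day 2 library of the other arm (limma, adjusted p from 0.0658 to 0.128). In met-1 RNAi the change was −2.11 ± 1.30 (limma, adjusted p = 0.324), and it was −4.28 and passed without replicate 2 of day 12 (limma, adjusted p = 0.00422).

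The second pyruvate kinase gene, pyk-2, was represented mainly by NM_001268587, which stood at 197.0 and 244.0 FPKM in L4440 at day 2, and 149.1 and 151.4 FPKM at day 12. The met-1 RNAi libraries held 198.2 and 212.7 FPKM, then 106.4 and 128.3 FPKM. The ages were separate in both arms. It fell by 1.07 ± 0.174 in L4440 (limma, adjusted p = 0.0109) and fell by 1.30 ± 0.174 in met-1 RNAi (limma, adjusted p = 0.00543). The L4440 call was lost without either of its day 12 libraries (limma, adjusted p = 0.0503 and 0.0557). The other 2 pyk-2 transcripts ranged from 0 to 18.3 FPKM, with single libraries far above their partner.

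Isocitrate lyase, at chrV:724458-727959, had a summed level below that of enolase at day 2 in every experiment, at 1157 against 1188 FPKM in L4440. At day 12 it stood above enolase in the controls, at 599 against 425 FPKM, and in the mutants, at 422 against 404 FPKM. In the other experiments it was below enolase at day 12 too. Isoform a of icl-1, NM_070905, stood at 1115 and 1197 FPKM in L4440 at day 2, and 390.3 and 384.0 FPKM at day 12. Libraries labelled met-1 RNAi gave 1144 and 1199 FPKM, then 437.5 and 310.2 FPKM. Every day 12 library lay far below every day 2 library. The change was −2.10 ± 0.178 in L4440 (limma, adjusted p = 0.00155) and −2.16 ± 0.178 in met-1 RNAi (limma, adjusted p = 0.00132). Isoform b, NM_001026196, was listed at 1.18 and 1.30 FPKM in L4440 at day 2, and 0 in the other 6 libraries. It counts among the 11 calls in L4440, but its group at day 12 is listed at 0 and no fold is given. It passed the filter on low values only through L4440 at day 2, where it is high, so that call is not used as support.

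**Figure D3:**
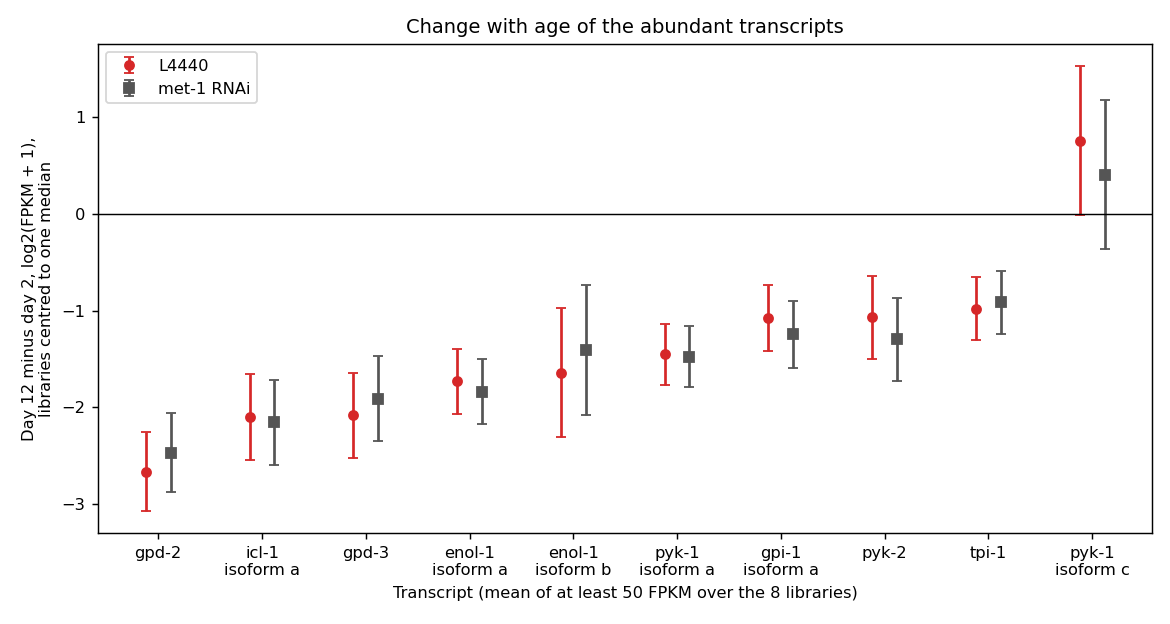
Change from day 2 to day 12 of the 9 member transcripts with a mean of at least 50 FPKM and of pyk-2, on the log2(FPKM + 1) scale with libraries centred to one median, with 95% confidence intervals from limma. Intervals of 9 of the 10 transcripts lie below 0 in both arms, from gpd-2 at −2.67 to tpi-1 at −0.98 in L4440, and pyk-1 isoform c lies above 0 with intervals that include 0.

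The order of the genes by summed FPKM changed with age. At day 2 it was, in both arms, gpd-3, gpd-2, enol-1, icl-1, pyk-1, tpi-1, pyk-2, gpi-1, gpd-1 and gpd-4. In L4440 the first 4 stood at 1454 ± 120, 1389 ± 106, 1188 ± 55.5 and 1157 ± 57.9 FPKM (SD, n = 2), and the gaps from gpd-3 to gpd-2 and from enol-1 to icl-1 were smaller than these SDs. Within each of the 2 libraries, though, gpd-3 was above gpd-2 and enol-1 above icl-1. The next were pyk-1 at 527 ± 39.3 and tpi-1 at 446 ± 41.01 FPKM, then pyk-2 at 221 ± 32.9 and gpi-1 at 189 ± 8.09 FPKM. Both pyk-1 libraries were above both of tpi-1, while the means of pyk-2 and gpi-1 differed by less than the SD of pyk-2. At day 12 in L4440 enol-1 stood first at 521 ± 11.1 FPKM, followed by gpd-3 at 492 ± 16.6 and icl-1 at 387 ± 4.49 FPKM. After these came tpi-1 at 326 ± 19.9, pyk-1 at 318 ± 17.8 and gpd-2 at 314 ± 21.3 FPKM, 3 neighbours whose means lay within 1 SD of each other, in the same order in both libraries. Thus gpd-2 went from the second to the sixth place, while tpi-1 went from the sixth to the fourth. Under the label met-1 RNAi at day 12 gpd-3 stood first at 536 ± 93.8 FPKM and enol-1 next at 518 ± 59.9 FPKM, with gpd-2 in the fifth place at 337 ± 50.2 FPKM.

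The RNA interference arms were then compared at each age. No member differed between the arms at day 2, where limma called 0.151% of all transcripts and 1 member, icl-1 isoform b, had an unadjusted p below 0.05. None differed at day 12, where 0.501% were called and 1 member, gpd-4, had an unadjusted p below 0.05. The age change itself differed between the arms for no member, against 0.372% of all transcripts, and both icl-1 isoform b and gpd-4 had an unadjusted p below 0.05. Each of these transcripts passed the filter on low values only through the group where it was high, so their unadjusted p carries no weight. The lowest adjusted p of a member was 0.631, 0.339 and 0.648 in these comparisons. Without replicate 1 of met-1 RNAi at day 12, pyk-1 isoform d alone was called at day 12 and for the difference in age change.

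A p that misses the threshold does not show that the arms are alike, so the intervals are given. For the 9 transcripts with a mean of at least 50 FPKM the difference, met-1 RNAi minus L4440, ran from −0.11 to 0.21 at day 2, with 95% intervals between −0.78 and 0.88. At day 12 it ran from −0.36 to 0.44, with intervals between −1.13 and 1.11. The tightest members were pyk-1 isoform a, tpi-1, enol-1 isoform a and gpi-1 isoform a. For pyk-1 isoform a the difference was −0.05 with an interval of −0.37 to 0.26 at day 2 and −0.07 with −0.39 to 0.24 at day 12.

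In the pooled tables a change was counted past 1 on the log2 scale, a doubling or halving of FPKM + 1, with no test. Among transcripts with at least 1 FPKM, 7 of 12 members were lower past that size in the controls, where 15.6% of all transcripts were. In the mutants 9 of 13 were, with a background of 17.9%, and in the untreated animals 9 of 13, with a background of 13%. No member was higher past that size in any of the 3 tables, where 14.2%, 17% and 7.55% of all transcripts were. The median of all transcripts moved by 0.00, −0.01 and −0.08 in them, so no centring was applied. The mutant and control tables may have been scaled separately.

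For gpd-2 the level went from 1344 to 318 FPKM in the controls, from 1906 to 286 FPKM in the mutants and from 512 to 125 FPKM in the untreated animals. Its day 2 to day 12 ratio was thus 4.23, 6.65 and 4.09, beside 4.42 in L4440 and 3.94 in met-1 RNAi. The ratio for gpd-3 was 2.85, 3.52 and 2.67 in the pooled tables, beside 2.95 and 2.66 in the RNA interference arms. As deposited, the ratios outside the mutant lay between 3.94 and 4.42 for gpd-2 and between 2.66 and 2.95 for gpd-3. That closeness depends on the scale, since the median transcript of the RNA interference arms moved up by 0.46 and 0.48. After centring, the log2 change in L4440 and met-1 RNAi was −2.67 and −2.47 for gpd-2, and −2.09 and −1.91 for gpd-3. The log2 ratios in controls, mutants and untreated animals were −2.08, −2.73 and −2.02 for gpd-2, and −1.51, −1.81 and −1.42 for gpd-3.

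For enol-1 the summed level of the matched isoforms had a ratio of 4.08 in the controls, 5.73 in the mutants and 3.73 in the untreated animals, beside 2.28 in L4440 and 2.41 in met-1 RNAi. A further enol-1 transcript that is not in the untreated table, NM_001027178, stood at 65.7 and 17.8 FPKM in the controls and 72.2 and 14.5 FPKM in the mutants, and at 0.721 FPKM or less in the 8 libraries. Ratios for tpi-1 were 2.13, 2.48 and 2.13, beside 1.37 and 1.34. Those of pyk-1 were 2.28, 2.83 and 2.31, beside 1.66 and 1.66. As deposited, these 3 genes had smaller ratios in both RNA interference arms than in the 3 pooled tables. The same held for gpi-1 and gpd-1, and for pyk-2 against the controls and mutants, but not for gpd-2, gpd-3, gpd-4 or icl-1. The median transcript had moved up in the RNA interference arms by about 0.46 to 0.48 on the log2 scale. Whether that shift accounts for the smaller ratios was not tested.

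The ratio of the ages varied between experiments for icl-1. Isoform a went from 800 to 599 FPKM in the controls, from 740 to 422 FPKM in the mutants and from 545 to 126 FPKM in the untreated animals. As deposited, the ratio of its summed level was 1.34, 1.75 and 4.50 in these tables, beside 2.99 in L4440 and 3.13 in met-1 RNAi. After centring, the log2 change of that sum was −2.13 in L4440 and −2.18 in met-1 RNAi. The log2 ratio of the sum was −0.42 in the controls, −0.81 in the mutants and −2.16 in the untreated animals. In the untreated animals isoform b, which is listed at 0 in the control and mutant tables, went from 152 to 28.7 FPKM. Its difference between experiments was not tested, since 3 of them have 1 value per age.

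As deposited, gpd-1 in the pooled tables differed in direction from the RNA interference arms. It went from 7.29 to 4.05 FPKM in the controls, from 10.4 to 3.90 FPKM in the mutants and from 4.82 to 2.73 FPKM in the untreated animals. The ratios of 1.797, 2.67 and 1.77 stand beside 0.866 in L4440 and 0.695 in met-1 RNAi, and this difference was not tested. It depends on the scale, since after centring gpd-1 changed by −0.34 in L4440 and −0.02 in met-1 RNAi, neither past the threshold. The log2 ratios in controls, mutants and untreated animals were −0.71, −1.22 and −0.64. At gpi-1 the ratios as deposited were 1.97, 2.19 and 2.07, beside 1.66 and 1.70. For pyk-2 they were 1.797 in the controls and 2.41 in the mutants, beside 1.33 and 1.74.

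**Figure D4:**
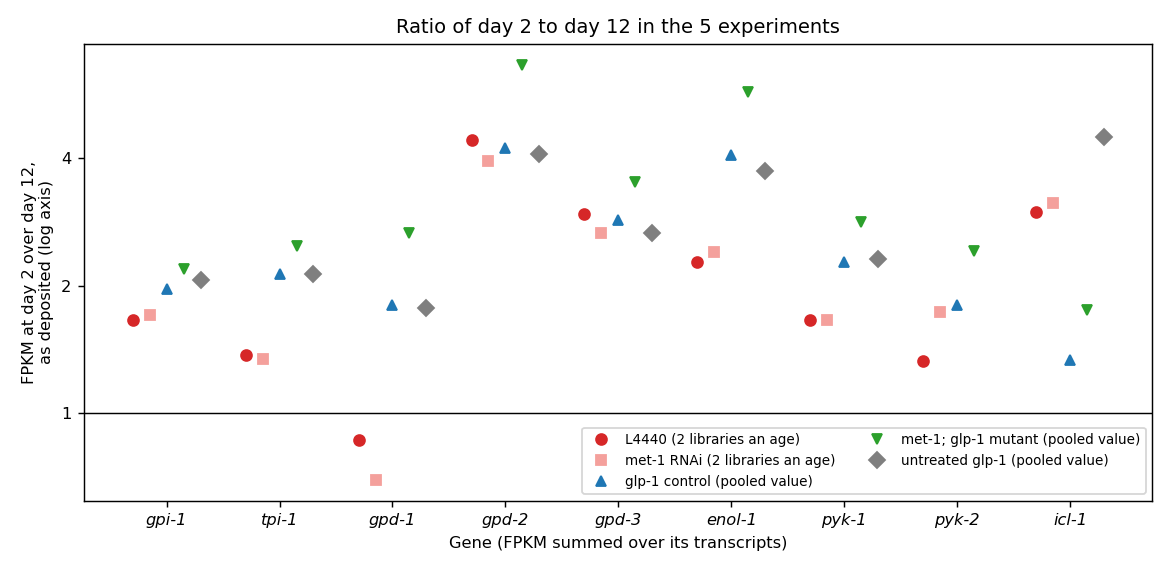
Ratio of FPKM at day 2 to day 12 for 9 of the genes, without gpd-4, summed over their transcripts, as deposited and on a log axis, in the 5 experiments (4 for pyk-2); RNA interference arms are means of 2 libraries an age and the others single pooled values. In these values as deposited, the mutant is the highest for every gene shown except icl-1. The icl-1 ratios run from 1.34 in the controls to 4.50 in untreated animals. With the RNA interference libraries centred, gene sums of gpd-3 and gpi-1 dropped more in both arms than in the mutant. That of pyk-2 did so in met-1 RNAi only, and those of gpd-1, gpd-2, enol-1, tpi-1 and pyk-1 did not.

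The authors' deposited table for untreated animals gives its own test of age for the 14 transcripts. Of the 14, the authors' deposited table calls 9 lower at a q-value below 0.05 and none higher, where 18.6% of its transcripts were lower and 13% higher by that rule. The lowest q-value in the authors' deposited table was that of gpd-2, 9.44e-21 at a log2 fold change of −2.03, a floor that many other transcripts share, followed by icl-1 isoform a at −2.11 with 2.34e-14. For gpd-1 the authors' deposited table gives −0.82 with a q-value of 0.0222. The 5 transcripts that did not pass in the authors' deposited table were gpi-1 isoform b, enol-1 isoform b, pyk-1 isoforms c and d, and gpd-4.

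Mutants and controls can be set side by side at each age, with no test and no replicate check. At day 2 the median member was higher in the mutants by 0.41 on the log2(FPKM + 1) scale, and that of all transcripts by 0.17. Only pyk-1 isoform c was past 1, at 1.11, among 13 members with at least 1 FPKM, where 11.2% of all transcripts were higher past that size and 4.39% lower. With a pseudocount of 10 or with columns centred, it was not past 1 either. For gpd-2, gpd-3, enol-1 isoform a and tpi-1 the value was 0.50, 0.49, 0.41 and 0.45. At day 12 none of 12 members was past 1 in either direction, with 10.8% of all transcripts higher and 4.76% lower, and the median member was at 0.00 and all transcripts at 0.18. The lowest value of the 12 was that of icl-1 isoform a, −0.50, at 422 FPKM in the mutants against 599 FPKM in the controls. Outside the 12, the main pyk-2 transcript stood at −0.85, with 68.0 against 123.1 FPKM, and at −0.22 at day 2. The mutants had the higher day 2 value for all of the 13 but pyk-1 isoform d and icl-1 isoform a, and no common direction at day 12. The median of all transcripts was also higher in the mutants at day 2, and the share of them that was higher was not counted. The day 2 direction is therefore not read as a result about the members.

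The other genes of these routes were read from lists of named genes, beside a median of −0.07 in L4440 and −0.01 in met-1 RNAi over all tested transcripts. Of all tested transcripts, 11.9% were called lower and 6.78% higher in L4440, and 12.3% and 8.35% in met-1 RNAi. Among those with a mean of at least 50 FPKM, 26.4% and 27.7% were called lower in the 2 arms. Other steps of glycolysis had 7 of 12 tested transcripts lower and none higher in L4440, with a median of −1.13, and 7 of 12 lower in met-1 RNAi. Phosphoglycerate kinase, pgk-1, went from 387 ± 22.98 to 114 ± 0.482 FPKM in L4440 (SD, n = 2), a change of −2.28 (limma, adjusted p = 0.000436). The phosphoglycerate mutase ipgm-1 changed by −2.21 (limma, adjusted p = 0.00159), and by −0.87 in another transcript, and the hexokinase hxk-2 by −1.23 (limma, adjusted p = 0.00152). These steps lie on both sides of the GAPDH reaction.

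Gluconeogenesis, which shares the reversible steps and draws on the glyoxylate cycle, had 4 of 5 transcripts lower in L4440, with a median of −2.03, and 5 of 5 in met-1 RNAi. The fructose-bisphosphatase gene fbp-1 went from 710 ± 7.74 to 161 ± 14.1 FPKM in L4440, a change of −2.67 (limma, adjusted p = 0.000329). The phosphoenolpyruvate carboxykinase genes pck-1 and pck-2 changed by −2.05 and −2.03 (limma, adjusted p = 0.00196 and 0.00128). No transcript of this list rose in either arm.

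Pyruvate dehydrogenase takes pyruvate into the TCA cycle. Its list had 5 of 6 transcripts lower in L4440 and 4 of 6 in met-1 RNAi. Of the 5, pdp-1 at −0.96 and pdhk-2 at −0.52 are genes of regulators and not of subunits. The acetyltransferase subunit gene dlat-1 changed by −1.94, dld-1 by −1.46 and pdha-1 by −1.15 in L4440 (limma, adjusted p = 0.000554, 0.00189 and 0.0164). Another dld-1 transcript stood at 0.04 there and was not called. The TCA cycle list had 24 of 31 lower in L4440, with a median of −1.21, and 25 of 31 in met-1 RNAi, with none higher. This list also holds genes of related enzymes outside the cycle itself, among them men-1 and idh-1. The isocitrate dehydrogenase gene idh-1, whose enzyme acts on the same substrate as isocitrate lyase, changed by −2.53 (limma, adjusted p = 0.00502). The subunit gene idhg-2 changed by −2.44 and malate dehydrogenase mdh-2 by −2.03 (limma, adjusted p = 0.000436 and 0.000721).

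In the pentose phosphate pathway 4 of 5 transcripts fell in each arm, among them the 6-phosphogluconate dehydrogenase gene T25B9.9 at −1.79, the transketolase gene tkt-1 at −1.60 and the glucose-6-phosphate dehydrogenase gene gspd-1 at −1.31 in L4440 (limma, adjusted p = 0.000609, 0.00102 and 0.00333). Trehalose and glycogen genes were more mixed, with 13 of 20 lower and 2 higher in L4440 and 11 lower and 3 higher in met-1 RNAi. Glycogen synthase, gsy-1, changed by −2.59 and glycogen phosphorylase, pygl-1, by −2.01 in L4440 (limma, adjusted p = 0.000481 and 0.00224). The transcript T04A8.7 of the same list changed by −2.88 (limma, adjusted p = 0.0311) at 13.005 FPKM or less.

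**Figure D5:**
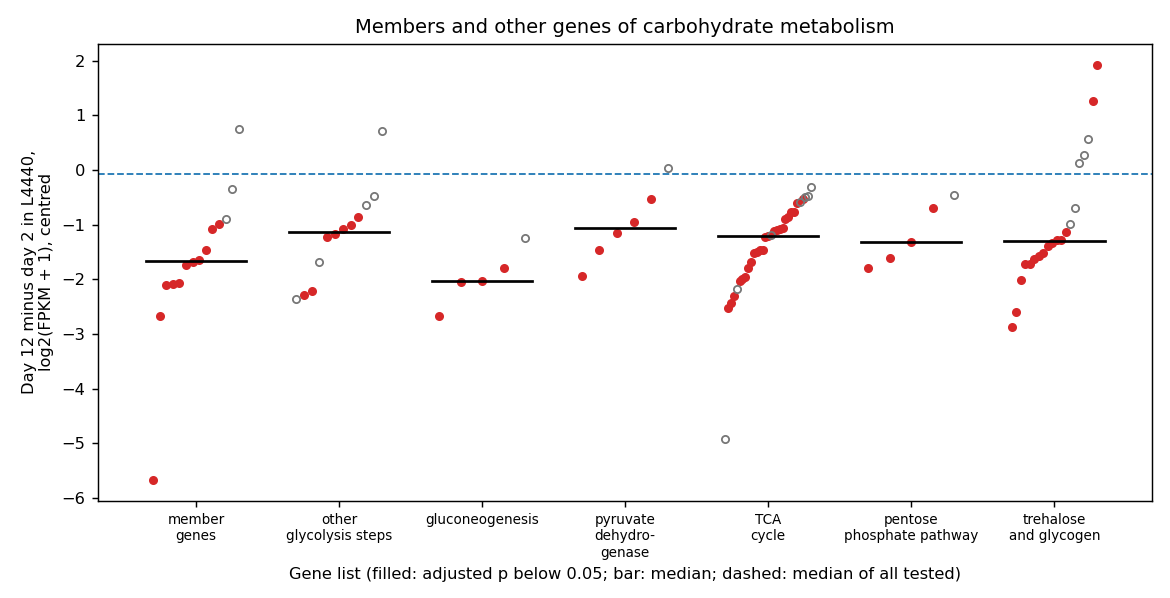
Change from day 2 to day 12 in L4440 of each tested transcript of the members and of 6 lists of related genes, on the centred log2(FPKM + 1) scale, with filled points at a limma adjusted p below 0.05, a bar at each list's median and a dashed line at −0.07, the median of all tested transcripts. Each list's median is −1.05 or lower, and the 2 filled points above 0 belong to the trehalose and glycogen list.

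Lists of tissue markers were read in the same libraries, with counts given for L4440, where 11.9% of all tested transcripts were lower and 6.78% higher. The counts are from centred values, but the sums are of FPKM as deposited over both arms. In those values the median transcript moved up with age by 0.46 in L4440 and 0.48 in met-1 RNAi on the log2 scale. Sums and counts are therefore not on the same scale. Body wall muscle, where GAPDH and enolase are abundant, had 10 of 23 transcripts lower and 1 higher in L4440, and a summed level of 5516 to 6662 FPKM at day 2 against 3071 to 3991 FPKM at day 12. Hypodermis markers had 3 of 9 lower, and their sum went from 2109 to 2438 FPKM down to 235 to 263 FPKM. Most of that sum was the collagen gene col-19, at 2052 to 2385 and then 192 to 212 FPKM. Intestine markers had 3 of 15 lower and 1 higher, with sums of 6795 to 11063 FPKM at day 2 and 5388 to 11642 FPKM at day 12, which overlap. Neuron markers had none of 24 called in L4440, with sums of 1072 to 1339 FPKM and then 2122 to 5723 FPKM. Pharynx markers had 1 of 11 in each direction, with sums of 423 to 468 and then 523 to 635 FPKM. Germline and oocyte markers stayed low, at 20.4 to 23.2 and then 46.9 to 58.8 FPKM over 16 genes, with 2 of 9 higher. Sperm markers had 1 of 5 in each direction, with sums of 88.2 to 137 and then 77.6 to 135 FPKM. In met-1 RNAi the counts lower and higher were 11 and 1 for muscle, 3 and 1 for hypodermis, 2 and 1 for intestine, 1 and 1 for neurons and pharynx, 0 and 2 for the germline and 3 and 1 for sperm. The part of these markers in the members' changes was not tested.

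The transcript of another gene with the profile most like that of each member was sought by Pearson's r of log2(FPKM + 1) over the 8 libraries, as a description. These points share 8 libraries that differ mainly by age, so high values are common. The gpd-2 profile was closest to gpd-3, with r of 0.998, and that of gpd-3 to aat-1, with 0.998. For enol-1 it was asp-4, with 0.999, for icl-1 the collagen gene col-140, with 0.999, and for gpi-1 idhb-1, with 0.993. The closest to tpi-1, pyk-2 and gpd-1 were K09C4.5, dhs-12 and C18D11.1, with 0.990, 0.995 and 0.977. For pyk-1 it was a transcript with no matched symbol, NM_001269447, with 0.998, and for gpd-4 the non-coding F38H4.15, with 0.960.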

How the data were processed

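The authors deposited 4 tables of poly-A RNA. The control, mutant and untreated tables hold FPKM, per the file headers. That of the RNA interference arms names no unit in its header, and its values were taken as FPKM because Cuffdiff appears in the submitters' processing notes. The library columns of these arms carry the label accepted_hits_unique. Log2 fold changes and q-values of the untreated table were deposited by the authors, and those fold changes equal the log2 ratio of its FPKM within 4.8e-05. The submitters' processing notes name CASAVA 1.8, BWA, TopHat, TopHat2 and Cuffdiff without saying what each was used for. The sources used here give neither build nor annotation, strandedness or scaling between libraries. The 12 chromatin samples were not analysed here.

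The 1112 transcripts whose status, deposited by the authors, was other than OK in at least 1 of 4 status columns were left out. Transcripts with at least 1 FPKM in at least 2 of 8 libraries were tested on log2(FPKM + 1), which understates changes of low transcripts. Libraries were centred to one median. The test was limma 3.58.1 in R 4.3.3 (lmFit, eBayes with trend, two-sided, 4 groups of 2 in one fit), with Benjamini-Hochberg adjustment over all transcripts and calls below 0.05, and the script was tested on simulated data. "Rose" and "fell" refer to these calls. Relative reads were judged from steps between low values. No 2 libraries held identical values.

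Library values are given for transcripts with a mean of at least 50 FPKM and each gene's leading transcript. From each list up to 3 genes with the largest called change in L4440 are named. Members and lists were chosen with earlier results of these data known. Alternatives covered pseudocount, filter, scaling, summing, replicate block and leaving out each library.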

Additional observations from a re-analysis of the deposited data

Results flagged for a closer look

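The change with age of pyk-1 isoform c went in opposite directions in the 2 pooled genotypes. On the log2(FPKM + 1) scale it was 0.29 in the glp-1(e2141) controls, from 33.5 to 41.1 FPKM, and −0.48 in the met-1(n4337); glp-1(e2141) mutants, from 73.3 to 52.4 FPKM. This difference was not tested, because each genotype has 1 pooled value per age.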

How the results depend on the processing

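Counts of calls moved with the scaling and the filter. Without centring 5545 transcripts were called with age in L4440 and 5835 in met-1 RNAi, against 3470 and 3841, and with no filter on low values 6763 and 7054. Member calls in L4440 were 7 with transcripts summed per gene and 6 with the gpd pairs also summed, of 9 and 7 features tested rather than 14. Same-numbered libraries did not deviate together (correlations from −0.06 to 0.13). With 2 libraries a group this cannot show whether same-numbered samples were cultured or prepared together. With replicate number as a block the counts of all transcripts were 2 between arms at day 2, 51 at day 12 and 7 for the difference in age change, against 28, 93 and 69, and those of members did not move. The last count was 14 with a pseudocount of 0.1 and 37 with 10. Members past 1 in mutants against controls at day 2 numbered 2 with a pseudocount of 0.1, 0 with 10 and 0 with columns centred. Leaving out one library at a time gave 2020 to 3243 transcripts called in L4440, 1777 to 3621 in met-1 RNAi, 1 to 37 at day 2, 11 to 170 at day 12 and 10 to 73 for the difference. Members then numbered 8 to 11 and 7 to 9 for age, 0 to 1 at day 12 and 0 to 1 for the difference.

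Changes of sign were limited to 3 transcripts that did not pass. In L4440 gpd-1 was 0.19 as deposited. In met-1 RNAi gpd-1 was 0.47 as deposited, 0.079 at equal summed FPKM, 0.067 scaled by median ratio (added after the data were seen), 0.041 with pairs summed, and −0.11 to 0.063 with a library left out. Also in met-1 RNAi, with a library left out pyk-1 isoform d ran from −4.28 to 0.087 and gpd-4 from −0.081 to 0.51, and gpd-4 was −0.15 with a pseudocount of 10. The cause was not tested. The shallowest library, replicate 2 of L4440 at day 12, had relative reads of 0.355.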
